A study of Mus musculus with 6 samples.

Results

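Ionocyte-like cells are duct cells of the salivary gland that carry the transcription factors Ascl3 and Foxi1 and the proton pump of acid-secreting cells. They were examined here in the submandibular gland of untreated mice. RNA of single cells was counted in droplets as unique molecular identifiers (UMIs, 1 per captured RNA molecule). Members were the cell barcodes of the untreated whole-epithelium library with at least 500 genes, at most 20% of UMIs from mitochondrial genes and at least 5 UMIs in sum of Ascl3, Foxi1, Atp6v0d2 and Atp6v1b1. They also had to hold less than 3% of their UMIs in the Klk1b kallikreins and Egf, products of granular duct cells. The rule found 827 members among 4093 barcodes that passed the first 2 limits (20.2%), out of 8277 barcodes in the matrix and 16640 in the series. The other 3266 passing cells served as the comparison.

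All groups were wild-type female C57BL/6J mice, an inbred laboratory strain. A library of irradiated epithelium held Epcam+ cells collected 90 days after a stereotactic dose of 30 Gy to the left submandibular gland. A library of basal cells held Epcam+ cells high in Cd49f from untreated glands, and the library of untreated epithelium held all Epcam+ cells, Epcam being an epithelial surface protein. All samples are labelled as 8 to 10 weeks old, which cannot be the collection age of irradiated mice. Dissociated cells were sorted without dead cells and without cells carrying Cd3, Cd16/Cd32, Cd31 or Cd45, so every share below is a share of sorted cells. Each library pooled 3 mice marked by hashtag antibodies, and values per mouse use cells with 1 hashtag call (n = 3 mice per group). A group was 1 library, so library, treatment and age cannot be told apart.

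Ionocytes are rare ion-transporting epithelial cells, known from fish skin and gills, amphibian skin, the kidney collecting duct (as intercalated cells), the inner ear and the mammalian airway. They move acid, bicarbonate and chloride with a vacuolar proton pump, chloride channels and exchangers, and Foxi1 is the transcription factor known to direct this programme. In mouse salivary glands Ascl3 is known to mark a population of duct cells.

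The members' gate UMIs ranged from 5 to 61 with a median of 15, and the members held a median of 11762 UMIs and 3009 genes, against 13933.5 UMIs and 2469 genes in the other cells. Their median mitochondrial share was 12.1%, against 6.25% in the other cells. Hashtags put 228, 232 and 171 members in mice 1, 2 and 3, while 43 members (5.20%) carried hashtags of several mice and 153 (18.5%) had no hashtag call, against 49.8% without a call among the other cells. Values per mouse rest on these calls: with mice assigned by the share of each hashtag instead, 18, 250 and 15 of the untreated members were in mice 1, 2 and 3. No member barcode occurred in another library, although the untreated library shared 8 barcodes with the irradiated one and 15 with the basal sort. The same rule found 1154 of 2629 passing cells in the irradiated library and 8 of 4418 in the basal sort.

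**Figure D1:**
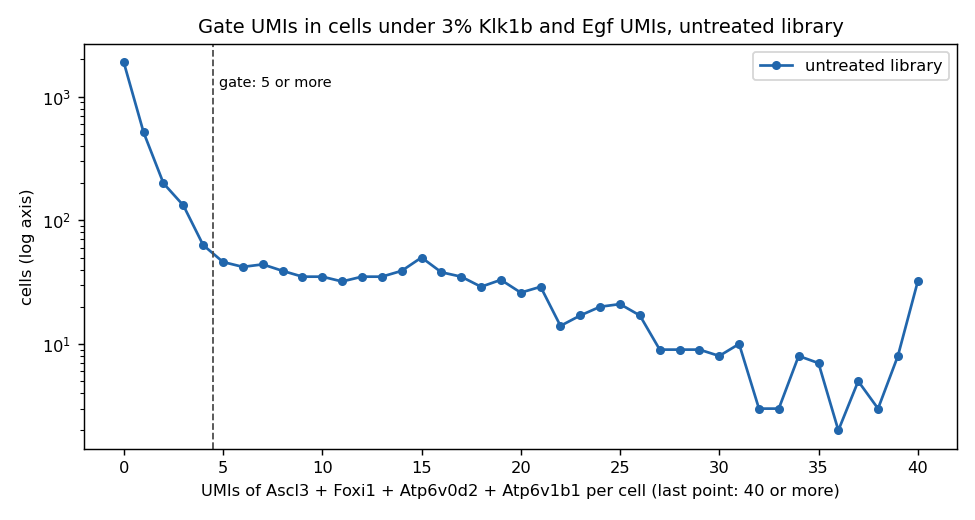
Number of cells (log axis) by the sum of UMIs of the 4 gate genes per cell in the untreated library, for cells under 3% Klk1b and Egf UMIs; the dashed line marks the gate. Of these cells, 1892 had no gate UMI and 63 had 4, the count then stays between 26 and 50 cells per step from 5 to 21 UMIs, and no empty step separates members from the rest; the last point holds cells with 40 or more UMIs.

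The members just inside the gate, 88 cells with 5 or 6 gate UMIs, held a median of 12429 UMIs, and 37.5% of them lay in the 2 clusters named ionocyte-like from their markers. Just outside it, 195 cells with 3 or 4 gate UMIs held a median of 13181 UMIs, and 11.8% of them lay in those clusters. Of members with 10 or more gate UMIs, 85.3% lay there, against 50.5% of members with 5 to 9. At the other limit, 39 members held 2 to 3% of granular UMIs and 20 cells that passed the gate held 3 to 4%.

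All passing cells of the library were clustered to set the label against the data. The 2 clusters named ionocyte-like, where 5 of 5 markers (Ascl3, Foxi1, Atp6v0d2, Atp6v1b1 and Rcan2) were raised, held 634 members (76.7%). Of these markers the rule had used all but Rcan2, so the clusters are no independent check of the label. A mixed cluster with ionocyte and granular duct genes held 84 members, of which 14.3% carried several hashtags. The remaining 109 members were spread over other clusters, 35 of them in granular duct-like and 17 in acinar-like clusters. Another 15 of them lay in a shallow cluster of 90 cells (median 1943.5 UMIs) that was left unnamed. There 5 of 5 ionocyte markers were raised too, and its cells outside the rule are among the other cells. Klk1, a kallikrein of granular ducts that the rule did not use, made up 3.65% of all members' UMIs, 9.70% in the mixed cluster and 0.497% in the 2 ionocyte-like clusters. For the members outside these 2 clusters the data go partly against the label. Below, levels are given over all members, and where these extra cells move a value, also over the 634 cells.

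Levels are given in CPM, the UMIs of a gene summed per mouse and scaled to the same total in every sum. Since the rule used counts of these same cells, differences between members and other cells are described without a test. A gene was counted as higher or lower where its mean differed at least 2-fold and all 3 mice ran the same way, among 8733 genes reaching 5 CPM in either set. By this count 1775 genes (20.3%) were higher and 243 (2.78%) lower, and the median over all these genes was 0.49 on the log2 scale. When every cell had equal weight, a choice made after seeing the data, 710 of 9551 genes (7.43%) were higher and 811 (8.49%) lower, with a median of 0.11. Of all calls 88.0% were higher in sums and 46.7% with equal weight. Sums give deep acinar cells more weight, and these hold much of their RNA in a few secretory genes. Mucl2 alone took 92594 CPM in members and 242380 CPM in other cells, but 9448 CPM in the 634 cells. The part of these cells in the shift of calls was not tested.

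The transcription factors include the genes that define the members. Foxi1, the forkhead factor of ionocytes (chromosome 11, GRCm38.p6 positions 34204341 to 34208089), had 175, 204 and 229 CPM in ionocyte-like cells of mice 1, 2 and 3, against 3.88, 4.31 and 3.38 CPM in the other cells. Ascl3, a basic helix-loop-helix factor (chromosome 7, positions 109727465 to 109731732), had 570, 436 and 385 CPM in ionocyte-like cells, against 12.0, 9.87 and 4.4 CPM in the other cells. Both genes chose the members, so the rule itself sets these values apart.

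Foxi2, a second forkhead gene that the rule did not use, had 34.7, 36.1 and 49.8 CPM in ionocyte-like cells, against 1.74, 1.58 and 1.02 CPM in the other cells. Dmrt2, a DM-domain factor, had 58.7, 23.1 and 34.5 CPM in ionocyte-like cells, against 2.96, 1.16 and 0.614 CPM in the other cells. Every mouse's ionocyte-like level of both genes lay above every mouse's level in the other cells. Tfcp2l1, a factor known from kidney intercalated cells, had 576 ± 18.8 CPM in ionocyte-like cells, against 232 ± 23.3 CPM in the other cells (SD, n = 3), and it was no longer 2-fold higher with every cell of equal weight. Granular duct-like cells had 417 CPM of Tfcp2l1 and intercalated duct-like cells 324 CPM, so other ducts carried this gene as well. Esrrg, an orphan nuclear receptor, was at 24.1 ± 6.65 CPM in ionocyte-like cells, against 22.8 ± 1.38 CPM in the other cells (SD, n = 3), which is less than the spread between mice. Among the 14 factors listed, 6 reached 5 CPM. Of the 4 that the rule did not use, 3 were higher, and 2 with every cell of equal weight, beside 20.3% and 7.43% of all genes. Foxi3, Esrrb, Gcm1, Hmx2 and Hmx3 had no UMI in the members of the 3 mice, and Pparg, Bsx and Prox1 stayed under 1 CPM.

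The genes known from airway ionocytes were high in these cells as well. Of 16 such genes 15 are in the files and 13 reached 5 CPM. All 13 were higher, 13 also with every cell of equal weight, beside 20.3% and 7.43% of all genes. Stap1, a signalling adaptor (chromosome 5, positions 86071584 to 86106125), had 565, 612 and 568 CPM in ionocyte-like cells, against 14.9, 15.6 and 6.34 CPM in the other cells. Hepacam2, an adhesion-type membrane protein, had 279, 339 and 311 CPM in ionocyte-like cells, against 10.2, 8.62 and 7.67 CPM in the other cells. Rcan2, a regulator of the phosphatase calcineurin, had 176, 183 and 174 CPM in ionocyte-like cells, against 5.42, 7.38 and 2.97 CPM in the other cells. These 3 genes ran between 33.8 and 47.3-fold higher and none overlapped between the sets.

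Asgr1, a subunit of the asialoglycoprotein receptor, was 8.17-fold higher, the phosphodiesterase gene Pde1c 11-fold and Coch 23.9-fold. Tmem61 was 15.3-fold higher, the small GTPase gene Rasd1 3.80-fold and Moxd1 4.47-fold, though Moxd1 was at 9.96 CPM in ionocyte-like cells, against 49.1 CPM in basal duct-like cells. Igf1 had no UMI in members and P2ry14 stayed at 1.25 CPM, against 0.585 and 1.56 CPM in the other cells.

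**Figure D2:**
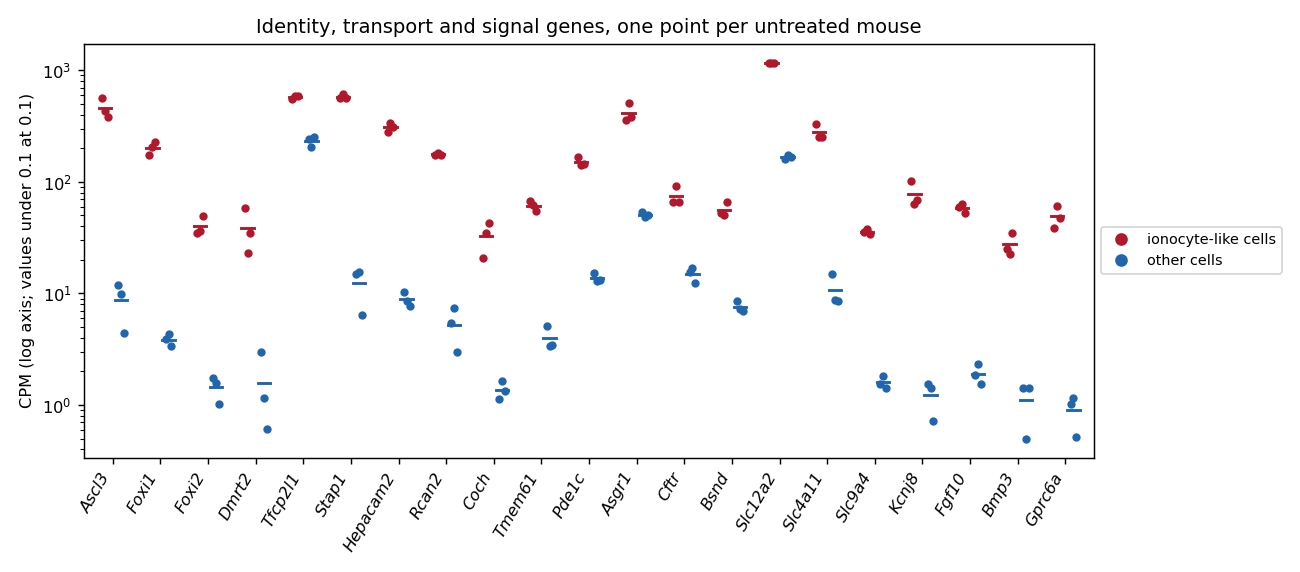
Level in CPM (log axis) of 21 identity, transport and signal genes in ionocyte-like cells (left, red) and in other cells (right, blue) of the untreated library; each point is 1 mouse and each bar the mean of 3 mice. In each of these genes all 3 ionocyte-like points lie above all 3 other points, with Stap1 at 565 to 612 CPM against 6.34 to 15.6 CPM. For Ascl3 and Foxi1 the rule itself sets the points apart.

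The proton pump is a rotary enzyme with a cytosolic V1 part that splits ATP and a membrane V0 part that carries protons. All of its 21 subunit genes that reached 5 CPM had a higher level in every mouse's ionocyte-like cells than in any mouse's other cells. The same held for 40 of 41 respiratory chain genes, and its share over all genes was not counted. The pump genes were 1.81 to 79.3-fold higher with a median of 2.39-fold. Of V1 genes 8 of 11 and of V0 genes 8 of 10 were at least 2-fold higher, beside 20.3% of all genes. With every cell of equal weight these counts were 5 of 11 and 5 of 10, beside 7.43% of all genes. Atp6v0d2 and Atp6v1b1 are among them and were part of the rule.

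The subunits that differed most were Atp6v1g3, Atp6v0d2 and Atp6v1b1. Atp6v1g3, a V1 G subunit known from kidney intercalated cells (chromosome 1, positions 138273738 to 138289462), had 110, 93.1 and 79.4 CPM in ionocyte-like cells, against 1.23, 1.41 and 0.921 CPM in the other cells. Its relative Atp6v1g1, which is widely expressed, had 291 ± 25.6 CPM in ionocyte-like cells, against 122 ± 7.04 CPM in the other cells (SD, n = 3), and 516 CPM in intercalated duct-like cells. Atp6v1b1, the V1 B subunit of acid-secreting cells, had 91.8, 87.0 and 83.5 CPM in ionocyte-like cells, against 15.1, 12.2 and 15 CPM in the other cells. Atp6v0d2, a V0 d subunit, had 331 ± 14.6 CPM in ionocyte-like cells (SD, n = 3). Intercalated duct-like cells had 73.2 CPM of Atp6v1b1 but 7.5 CPM of Atp6v0d2, while granular duct-like cells had 3.88 CPM of Atp6v1b1 and 118 CPM of Atp6v0d2.

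The other subunits differed less. Atp6ap2, an accessory subunit, was 4.75-fold higher, Atp6v0b 3.79-fold, Atp6v1d 3.65-fold, Atp6v1e1 3.53-fold, Atp6v0c 3.46-fold, Atp6ap1 3.43-fold and Atp6v1a 2.96-fold. Each of these was also at least 2-fold higher with every cell of equal weight. Atp6v1f, Atp6v1g1, Atp6v1b2, Atp6v0a1, Atp6v0e and Tcirg1 were 2.04 to 2.39-fold higher in sums and not 2-fold higher with equal weight. Atp6v1c1, Atp6v1c2, Atp6v1h, Atp6v0a2 and Atp6v0d1 were 1.81 to 1.93-fold higher. Of these Atp6v1c2 had 26.8 CPM in ionocyte-like cells, 38.6 CPM in granular duct-like cells and 0.708 CPM in intercalated duct-like cells. The kidney-type a subunit Atp6v0a4 had no UMI in the members assigned to a mouse, and 0.121% of all members, with or without a hashtag call, had one. Atp6v1e2, Atp6v1g2 and Atp6v0e2 stayed under 2 CPM in members.

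**Figure D3:**
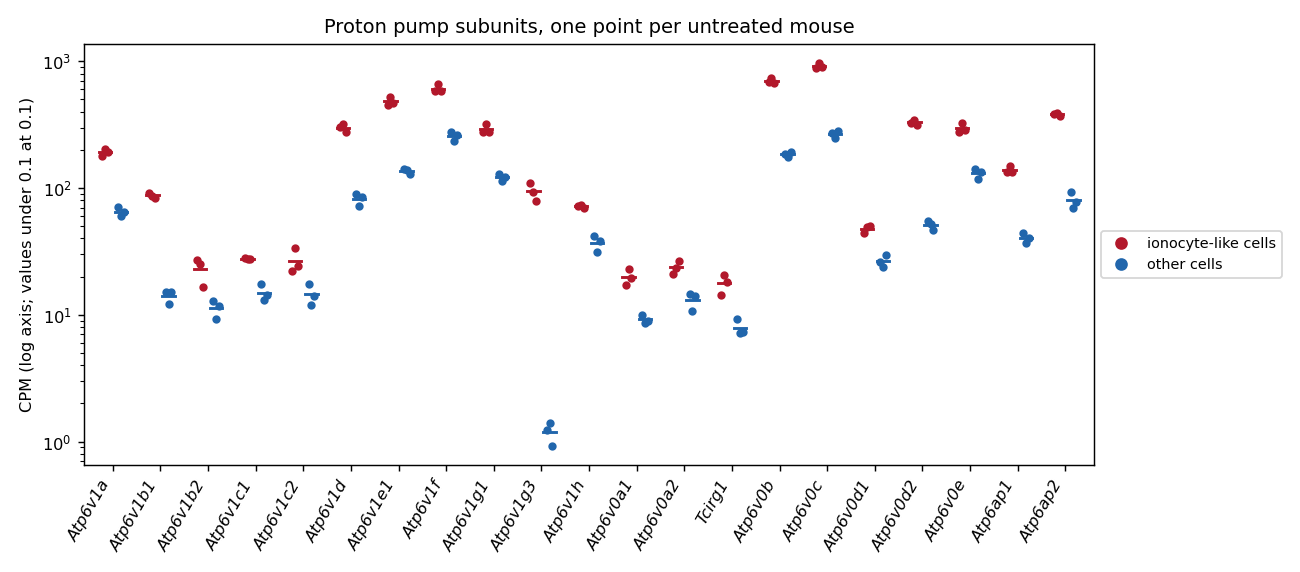
Level in CPM (log axis) of the 21 proton pump subunit genes that reached 5 CPM, in ionocyte-like cells (left, red) and other cells (right, blue) of the untreated library; points are mice and bars means. Atp6v1g3 is the widest apart, at 79.4 to 110 CPM against 0.921 to 1.41 CPM.

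Of 14 chloride channel and cotransporter genes that reached 5 CPM, 6 were higher and 1 lower, beside 20.3% and 2.78% of all genes, and 5 were higher and 2 lower with every cell of equal weight. Slc12a2, the sodium-potassium-chloride cotransporter that loads chloride into secretory cells, had 1164 ± 6.23 CPM in ionocyte-like cells, against 168 ± 6.76 CPM in the other cells (SD, n = 3). Bsnd, the chloride channel subunit barttin, had 56.5 ± 8.80 CPM in ionocyte-like cells, against 7.61 ± 0.858 CPM in the other cells (SD, n = 3). Granular duct-like cells had 15.1 CPM of Bsnd.

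Cftr, the chloride and bicarbonate channel mutated in cystic fibrosis (chromosome 6, positions 18170687 to 18322770), had 66.2, 92.0 and 65.4 CPM in ionocyte-like cells, against 15.6, 16.8 and 12.5 CPM in the other cells. The sets did not overlap in any mouse, and granular duct-like cells came next at 30.2 CPM. After thinning each cell to 3000 UMIs, 205 of 821 members had a Cftr UMI, or 25% (exact binomial 95% interval 22.0 to 28.1%), against 3.37% of 593 intercalated duct-like cells. Without thinning the shares were 61.8% in members and 5.90% in intercalated duct-like cells, at median depths of 11762 and 6235 UMIs. These shares pool the cells of all mice, with or without a hashtag call, and granular duct-like cells were not among the cells thinned for them. Ano1, the calcium-gated chloride channel of fluid secretion, was lower in members, with 5.29 ± 2.30 CPM against 27.5 ± 2.67 CPM in the other cells (SD, n = 3).

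Of 36 bicarbonate and acid-base genes 14 reached 5 CPM, 3 of these were higher and 4 lower, beside 20.3% and 2.78% of all genes. With every cell of equal weight 3 of 15 were higher and 8 lower, beside 7.43% and 8.49%. Slc4a11, a membrane transporter of the SLC4 family (chromosome 2, positions 130684107 to 130697519), had 332, 252 and 255 CPM in ionocyte-like cells, against 14.9, 8.71 and 8.60 CPM in the other cells. Slc9a4, a basolateral sodium-proton exchanger, had 35.7 ± 1.71 CPM in ionocyte-like cells, against 1.6 ± 0.203 CPM in the other cells, and its relative Slc9a2 was 6.67-fold higher (SD, n = 3). The exchanger Slc9a3 was lower, at 2.14 ± 1.21 CPM in ionocyte-like cells against 13.7 ± 2.57 CPM in the other cells. Carbonic anhydrases, which make bicarbonate and protons from carbon dioxide, were not raised: Car2 had 59.1 ± 20.8 CPM in ionocyte-like cells, against 245 ± 67.6 CPM in the other cells, and Car12 had 29.3 ± 12.1 CPM against 72.8 ± 7.10 CPM (SD, n = 3). The anion exchangers known from kidney intercalated cells, Slc4a1 and Slc26a4, had no UMI in the members of the 3 mice.

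Sodium and potassium genes were partly shared with granular ducts. Of 34 genes 22 reached 5 CPM, 11 were higher and 1 lower, beside 20.3% and 2.78% of all genes. With every cell of equal weight 7 of 23 were higher and 6 lower, beside 7.43% and 8.49%. Kcnj8, a pore subunit of ATP-sensitive potassium channels, had 101, 63.6 and 69.3 CPM in ionocyte-like cells, against 1.53, 1.41 and 0.716 CPM in the other cells, and it had no UMI in intercalated, acinar or basal duct-like cells of the 3 mice. Kcnma1, the large-conductance potassium channel, was 4.59-fold higher at 127 CPM in ionocyte-like cells, with 114 CPM in intercalated duct-like cells. The sodium channel subunits Scnn1a and Scnn1b were 2.94-fold and 3.37-fold higher, and the sodium pump regulator Fxyd2 3.24-fold. Scnn1b was at 229 CPM in ionocyte-like cells, against 169 CPM in granular duct-like cells, and Fxyd2 at 8639 CPM in ionocyte-like cells, against 6110 CPM in granular duct-like cells.

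The water channel Aqp5 of acinar cells had 43.4 ± 18.9 CPM in ionocyte-like cells, against 121 ± 14.4 CPM in the other cells, and 4.26 CPM in the 634 cells (SD, n = 3). The potassium channel Kcnn4 of acinar cells ran the same way, with 13 CPM in all members and 1.65 CPM in the 634 cells.

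**Figure D4:**
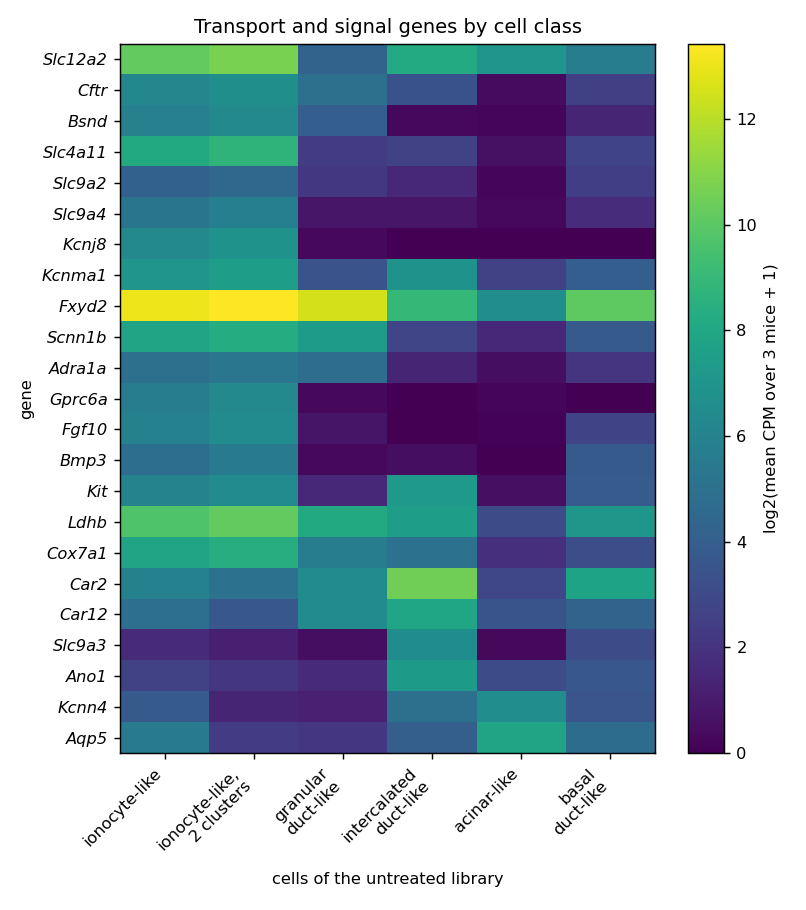
Mean level over 3 mice, as log2(CPM + 1), of 23 transport and signal genes in all ionocyte-like cells, in those of the 2 ionocyte-like clusters, and in 4 other classes of the untreated library (columns). Slc12a2, Slc4a11, Kcnj8, Fgf10 and Gprc6a are brightest in the 2 left columns, Fxyd2 and Scnn1b are also bright in granular duct-like cells, and Car2, Slc9a3 and Ano1 are brightest in intercalated duct-like cells.

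Signal genes included ligands and receptors. Fgf10, a fibroblast growth factor of gland development (chromosome 13, positions 118714699 to 118792573), had 59.3, 63.1 and 52.2 CPM in ionocyte-like cells, against 1.84, 2.32 and 1.53 CPM in the other cells. At 3000 UMIs per cell 156 of 821 members (19.0%, exact binomial 95% interval 16.4 to 21.9%) had an Fgf10 UMI, against 0 of 593 intercalated duct-like cells, which allows up to 0.506% of such cells to have a UMI at this depth and sets no limit on cells that express the gene. Without thinning 52.5% of members had one and no intercalated duct-like cell did. Bmp3, of the bone morphogenetic protein family, had 27.6 ± 6.68 CPM in ionocyte-like cells, against 1.12 ± 0.539 CPM in the other cells (SD, n = 3). Gprc6a, a receptor for amino acids and cations, was 54.7-fold higher at 49.2 ± 11.2 CPM in ionocyte-like cells (SD, n = 3). Pgr, the progesterone receptor, was at 6.2 CPM in ionocyte-like cells against 0.528 CPM in the other cells. Adra1a, an alpha-1 adrenergic receptor, was 2.78-fold higher, and Chrm3, the muscarinic receptor of secretion, was lower at 4.53 CPM against 9.05 CPM in the other cells. Kit, a receptor tyrosine kinase of intercalated ducts, had 63.1 CPM in ionocyte-like cells and 147 CPM in intercalated duct-like cells, against 24.7 CPM in all other cells.

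Of 45 growth factor and cytokine genes 24 reached 5 CPM, 6 were higher and 5 lower, beside 20.3% and 2.78% of all genes. With every cell of equal weight 4 of 27 were higher and 12 lower, beside 7.43% and 8.49%. Egf, which the rule limits, is among these genes.

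Respiratory chain genes of the nucleus had a higher mean in 40 of 41 cases, with a median log2 ratio of 0.97, beside 0.49 over all genes. The share of all genes with a higher mean was not counted. Of these 19 were at least 2-fold higher and none lower, beside 20.3% and 2.78% of all genes, and 7 were higher with every cell of equal weight, beside 7.43%. Cox7a1, a heart and muscle form of a cytochrome oxidase subunit, had 249, 244 and 198 CPM in ionocyte-like cells, against 38.5, 26.9 and 33.2 CPM in the other cells. Ldhb, the lactate dehydrogenase subunit of oxidative tissues, had 837 ± 42.1 CPM in ionocyte-like cells, against 155 ± 20.2 CPM in the other cells (SD, n = 3). The members' mitochondrial UMI share, which the rule limits, was also higher, as given above, and its part in these counts was not tested.

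Among the 25 leading genes outside the rule, by size of the ratio, were, besides Stap1, Hepacam2, Slc4a11, Rcan2, Atp6v1g3, Kcnj8, Fgf10 and Pde1c, the genes Aldh1a3, Cpxm2, Nrip3, Itih5, Aldh1a1, Gng4, Serpinb9, Vwf, Dsc3, Trp53i11, Ckap2, Pam, Ociad2, Tspan1, Colec12 and S100a6. They were 7.89 to 79.3-fold higher, and all 25 also met the 2-fold count with every cell of equal weight. In 24 of the 25 the level was above that of each of the 4 classes compared, and in 23 at least 2-fold above it. The exceptions were S100a6, with 1525 CPM in ionocyte-like cells and 2401 CPM in basal duct-like cells, and Colec12. Aldh1a3 and Aldh1a1, enzymes that make retinoic acid, had 265 ± 4.37 and 123 ± 12.9 CPM in ionocyte-like cells, against 9.55 ± 2.93 and 5.46 ± 1.37 CPM in the other cells (SD, n = 3). Vwf, the clotting factor known from endothelium, had 67.3, 89.2 and 82.5 CPM in ionocyte-like cells, against 3.68, 2.49 and 2.35 CPM in the other cells. The 8 endothelial markers together summed to between 0.834 and 3.48 CPM in ionocyte-like cells and 22.3 to 49.6 CPM in the other cells, with Kdr, Cdh5, Emcn and Cldn5 at 0 in the members of the 3 mice.

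At the other end, the 10 genes lowest in members included Dcpp1, Bpifa2, Krt14, Mup5, Wfdc18, Esp4, Gjb2, Krt17 and Ccnd1. Krt14, a keratin of basal cells, had 1.12 ± 0.686 CPM in ionocyte-like cells, against 81.6 ± 36.1 CPM in the other cells (SD, n = 3). Wfdc18, which was highest in intercalated duct-like cells, had 742 ± 232 CPM in ionocyte-like cells, against 5234 ± 660 CPM in the other cells (SD, n = 3). Bpifa2 and Dcpp1, saliva proteins, were high in other cells of mouse 3 only. Dcpp1 had 0.661 CPM in ionocyte-like cells, against 3.68, 2.32 and 1323 CPM in the other cells of mice 1, 2 and 3. Bpifa2 had 0 CPM in ionocyte-like cells of all mice, against 0.102, 0.166 and 314 CPM in the other cells of mice 1, 2 and 3. Their place in this list rests on that mouse.

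Over the 19 clusters of the untreated library, the genes with a pattern most like Foxi1 were Gng4 (Pearson r 0.986 of log2(CPM + 1)), Atp6v1g3 (0.954), Dmrt2 (0.934), Stap1 (0.931), Gprc6a (0.930), Slc4a11 (0.927), Clnk (0.922) and Slc9a4 (0.922). Clusters share 1 library and differ in depth, so these values only describe the pattern.

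Markers of other cell types differed in members by list. The 9 intercalated duct markers summed to between 587 and 655 CPM in ionocyte-like cells, against 365 to 483 CPM in the other cells. Singly, 1 of the 9 was at least 2-fold higher and 4 were lower, beside 20.3% and 2.78% of all genes. With every cell of equal weight 0 were higher and 5 lower, beside 7.43% and 8.49%. The 9 luminal duct markers summed to between 6516 and 7756 CPM in ionocyte-like cells, against 5200 to 7801 CPM in the other cells. The 17 acinar markers in the files summed to between 82444 and 185503 CPM in ionocyte-like cells, against 356682 to 405315 CPM in the other cells, and only Bpifa2 was at 0. The 22 granular duct products summed to between 41315 and 61079 CPM in ionocyte-like cells, against 110444 to 127097 CPM in the other cells, the rule having limited most of them. The 11 immune markers summed to between 2.22 and 4.87 CPM in ionocyte-like cells, against 1.23 to 10.3 CPM in the other cells, with Cd3e, Cd3d, Csf1r and Fcgr2b at 0, and none reached 5 CPM. The part of acinar and granular RNA in the members' levels was not tested.

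Members differed among themselves. Clustering the 827 cells gave 7 sub-clusters, which are described by their leading genes without a test, since the same counts formed them. Sub-cluster 4, with 188 cells, led with Dmrt2, Ascl3 and Rasd1: Ascl3 was at 1032 CPM there and 368 CPM in the other members, and Dmrt2 at 113 CPM and 27.1 CPM. Its Foxi1 level of 325 CPM was close to the 341 CPM of sub-cluster 3. Sub-cluster 1, with 209 cells, led with Plscr1, Ier5, F3 and S100a6, and carried 473 CPM of the glucose transporter gene Slc2a1 and 1409 CPM of Ifrd1, against 152 and 530 CPM in the other members. The immediate-early gene Fos was at 192 CPM in sub-cluster 1, against 2531 CPM in the other members. Sub-cluster 3, with 222 cells, led with Socs3, Cebpd and other early response genes, at 3342 CPM of Fos and 1242 CPM of Egr1.

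Mice differed in these states. Sub-cluster 1 held 39.9, 20.3 and 12.9% of the members of mice 1, 2 and 3, and sub-cluster 3 held 20.2, 23.3 and 38.0%. Sub-cluster 4 held 21.1, 26.3 and 18.1%.

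Sub-cluster 2 held 11 cells with interferon-stimulated genes, with Isg15 at 2328 CPM, and 6 of its cells were of mouse 3. Sub-cluster 0, with 166 cells, had 118742 CPM of Klk1 and only 103 CPM of Foxi1, a median of 21301.5 UMIs, and several hashtags in 10.2% of its cells. Sub-cluster 5 held 17 cells with acinar genes at a median of 93974 UMIs, and sub-cluster 6 held 14 cells with 153113 CPM of Smgc, a submandibular mucin. Of these cells 11.8% and 14.3% carried several hashtags, the mark of a droplet with cells of more than 1 mouse. Doublets within a mouse carry 1 hashtag and were not removed.

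The upstream sequence of the raised genes was compared with all promoters, because Foxi1 and its relatives bind DNA at letters such as TGTTTAC. The windows were the 250 bases before the gene start in RefSeq promoters of GRCm38.p6, searched on both strands, and 17 of the 25 leading genes and 13 of the 16 raised proton pump genes have an entry. TGTTTAC was found in 2 of the 17 (11.8%), Fgf10 and Pde1c, and in 1 of the 13 (7.69%), Atp6v1b1, against 3.54% of all 27025 genes in the table. The E-box CAGCTG, letters that basic helix-loop-helix factors can bind, was found in 5 of the 17 (29.4%) and in 0 of the 13, against 14.7% of all genes. With so few genes these shares are descriptions, and a match is not a binding site. The 3 windows with TGTTTAC are shown 5′ to 3′ on the gene's strand, with the match or its reverse complement in capitals. Atp6v1b1 lies on the plus strand at chr6:83742767-83743016 with the match starting 98 bases before the gene start, Fgf10 on the plus strand at chr13:118714449-118714698 with the match at 11 bases, and Pde1c on the minus strand at chr6:56369635-56369884 with the match at 79 bases.
Atp6v1b1: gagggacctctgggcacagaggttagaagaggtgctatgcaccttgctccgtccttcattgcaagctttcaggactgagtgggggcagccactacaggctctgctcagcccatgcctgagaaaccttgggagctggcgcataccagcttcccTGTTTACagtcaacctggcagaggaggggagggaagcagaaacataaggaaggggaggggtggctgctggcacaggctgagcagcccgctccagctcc
Fgf10: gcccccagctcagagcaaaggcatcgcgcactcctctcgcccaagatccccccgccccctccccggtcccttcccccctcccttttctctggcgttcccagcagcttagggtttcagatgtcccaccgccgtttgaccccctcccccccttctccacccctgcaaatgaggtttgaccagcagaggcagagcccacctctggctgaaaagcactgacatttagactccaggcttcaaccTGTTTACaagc
Pde1c: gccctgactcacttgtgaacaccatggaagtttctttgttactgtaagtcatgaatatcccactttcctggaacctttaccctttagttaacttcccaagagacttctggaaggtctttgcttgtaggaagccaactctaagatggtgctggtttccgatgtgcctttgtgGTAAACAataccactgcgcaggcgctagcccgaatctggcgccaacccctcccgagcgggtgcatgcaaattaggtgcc

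The last comparison set irradiated against untreated ionocyte-like cells chosen by the same rule, to see what these cells express 90 days after irradiation. Mice had 38.4, 48.2 and 40.5% members among passing cells with a hashtag in the irradiated library, against 31.8, 30.1 and 25.3% in the untreated one, and the groups did not overlap. The means were 42.4 ± 5.20% and 29.0 ± 3.39% (SD, n = 3), with a two-sided exact permutation p of 0.1, the smallest that 3 against 3 mice can give. When the gate UMIs also had to make up 0.05% of a cell's UMIs, a setting added after seeing the data, the means were 26.5 ± 7.14% and 24.8 ± 3.45% (exact p = 0.8). In members chosen on cells thinned to 3000 UMIs they were 7.04 ± 2.38% in irradiated and 12.2 ± 2.75% in untreated mice (exact p = 0.2), the opposite direction. The difference of 13.3 percentage points was 29.2 with a mitochondrial limit of 10% (exact p = 0.1), 21.4 with mice assigned by hashtag share (exact p = 0.1), 5.32 with a granular limit of 1% (exact p = 0.3) and 4.44 with a gate of 10 UMIs (exact p = 0.3). Median depth of members was 18742.5 to 19288 UMIs per irradiated mouse and 11735 to 12695 UMIs per untreated mouse.

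Gene levels were tested on the UMIs summed per mouse, between 2873036 and 13210332 per sum, with edgeR's quasi-likelihood test and Benjamini-Hochberg adjustment over 9948 genes at 0.05. Irradiated cells had 1462 genes higher (14.7%) and 963 lower (9.68%). With library size in place of TMM scaling 76.1% of the calls were higher, against 60.3% with TMM. Without irradiated mouse 2 there were 451 lower calls, without untreated mouse 2 there were 570 and without untreated mouse 3 there were 602. Smgc, Aqp5, Car6, Pip, Wfdc12, Scgb1b27, Prol1 and Mucl2 were the 8 genes with the largest decrease. Among untreated members Smgc was at 153113 CPM in sub-cluster 6, against 72.4 CPM in sub-cluster 5 with its acinar genes. Of tested acinar markers 14 of 14 fell, beside 9.68% of all genes. With the 0.05% gate 9 of them fell, and Aqp5, Lpo, Oit1, Bhlha15 and Dcpp3 were not tested. Mucl2 was at 150 ± 104 CPM in irradiated and 92594 ± 39040 CPM in untreated members (SD, n = 3). Aqp5 had no UMI in irradiated members, which makes it at least 292-fold lower against a floor of 3 counts over the group. Acinar-like cells and the cells of sub-cluster 6 were among the untreated members, as given above, and their part in these falls was not tested.

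Among ionocyte genes, direction varied by gene. The gate genes chose the cells of both groups and are not compared. Atp6v1g3 rose, with 374, 698 and 1137 CPM in irradiated mice, against 110, 93.1 and 79.4 CPM in untreated mice (log2 fold change 2.85 ± 0.32 (SE), edgeR adjusted p = 0.000232). No irradiated mouse overlapped an untreated one, and the change was 3.10 with the 0.05% gate. Of the other V1 subunits Atp6v1h rose by 0.63 and Atp6v1e1 fell by 0.27 on the log2 scale, and 7 of the 10 tested outside the rule passed in neither direction. The call of Atp6v1e1 (edgeR adjusted p = 0.0453) held in 3 of 16 alternatives. In V0 Tcirg1 rose and Atp6ap1 and Atp6v0b fell, with 7 of the 10 outside the rule in neither direction. The calls of Tcirg1 and Atp6ap1 held in 9 of 16 alternatives each, and that of Atp6v0b (edgeR adjusted p = 0.0490) in 2 of 16.

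Several channel and signal genes of ionocytes fell. Of 13 tested airway ionocyte genes 4 fell and 0 rose, beside 9.68% and 14.7% of all genes, and 9 passed in neither direction. With the 0.05% gate 4 fell and 2 rose, beside 822 and 1329 of all 9287 genes tested. Bsnd averaged 21.9 ± 12.2 CPM in irradiated and 56.5 ± 8.80 CPM in untreated mice (SD, n = 3; edgeR log2 fold change -1.47 ± 0.28 (SE), adjusted p = 0.00452). Gprc6a had 8.16, 22.3 and 20.5 CPM in irradiated mice, against 39.0, 61.1 and 47.3 CPM in untreated mice (edgeR log2 fold change -1.53 ± 0.26 (SE), adjusted p = 0.00272). The mice of both genes did not overlap between groups. Fgf10 fell by 1.24, Slc12a2 by 0.74, Hepacam2 by 0.72 and Asgr1 by 1.05 on the log2 scale, and Cftr, Stap1 and Rcan2 passed in neither direction. The call of Slc12a2 held in 12 of 16 alternatives and that of Hepacam2 in 8 of 16. Tfcp2l1 had 253, 312 and 347 CPM in irradiated mice, against 555, 590 and 584 CPM in untreated mice (edgeR log2 fold change -1.02 ± 0.10 (SE), adjusted p = 0.000101). Foxi2 had 20.7 ± 10.5 CPM in irradiated and 40.2 ± 8.32 CPM in untreated mice (SD, n = 3), with an edgeR adjusted p of 0.0267 and a call in 9 of 16 alternatives. When the gate was also set as a share of a cell's UMIs, each of these falls was smaller and kept its call. The log2 fold changes were then -1.19 for Bsnd, -1.20 for Gprc6a, -0.89 for Fgf10 and -0.38 for Slc12a2. They were -0.42 for Hepacam2, -0.92 for Asgr1, -0.85 for Tfcp2l1 and -0.67 for Foxi2. The part of granular duct RNA in these falls was not tested.

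Calcb, the gene of a calcitonin gene-related peptide, had 217, 109 and 114 CPM in irradiated mice and no UMI in untreated ones, at least 499-fold higher against a floor of 3 counts over the group. The sulfotransferase gene Sult1c1 had 268, 382 and 684 CPM in irradiated mice, against 8.01, 4.17 and 8.35 CPM in untreated mice (log2 fold change 5.92 ± 0.38 (SE), edgeR adjusted p = 1.03e-05). The other genes with the largest rises were Lcn2, Tnip3, Areg, Ifit3, Tnfrsf11b and Ifit3b, of which Areg ranged from 14.5 to 204 CPM between irradiated mice.

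Targets of p53, the factor activated by DNA damage, rose in 16 of 23 tested genes and fell in 2, beside 14.7% and 9.68% of all genes. Their median log2 fold change was 1.69, against -0.01 over all genes tested. Cdkn1a, the cell cycle inhibitor p21, had 668, 339 and 248 CPM in irradiated mice, against 17.1, 41.4 and 19.1 CPM in untreated mice (3.94 ± 0.43 (SE), edgeR adjusted p = 0.000203). Keratins and a claudin of luminal ducts rose, with Krt8 at 4429 ± 164 CPM in irradiated and 1605 ± 123 CPM in untreated mice, and Cldn4 at 4795 ± 389 and 1148 ± 99.9 CPM (SD, n = 3). Of 23 immediate-early and heat shock genes 15 fell and none rose, beside 9.68% and 14.7% of all genes tested. Fos had 595, 674 and 570 CPM in irradiated mice, against 1479, 1982 and 3142 CPM in untreated mice (edgeR log2 fold change -1.93 ± 0.23 (SE), adjusted p = 0.000306).

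Of 41 tested respiratory chain genes 16 fell and 1 rose, beside 9.68% and 14.7% of all genes, with a median log2 fold change of -0.23. The falls held in between 2 of 16 alternatives, for Sdha and Atp5d, and 16 of 16, as for Atp5b. Atp5b, a subunit of ATP synthase, had 1283 CPM in irradiated and 1730 CPM in untreated mice. Of 25 tested growth factor and cytokine genes 12 rose and 2 fell, beside 14.7% and 9.68% of all genes. Of 19 tested granular duct products, among them those the rule limits, 7 rose and 2 fell, beside 14.7% and 9.68% of all genes. With the 0.05% gate 1 rose and 12 fell, so their direction depends on the gate. Klk1, which the rule did not use, was at 76583 CPM in irradiated and 40352 CPM in untreated members, and with the 0.05% gate its log2 fold change was 0.12 with an edgeR adjusted p of 0.803. With that gate 6 luminal duct markers rose, 12 p53 targets rose and 1 fell, and of the immediate-early and heat shock genes 1 rose and 15 fell. The p53 targets Tnfrsf10b and Sesn2 were not tested there. Over all 9287 genes tested with that gate, 1329 rose and 822 fell.

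**Figure D5:**
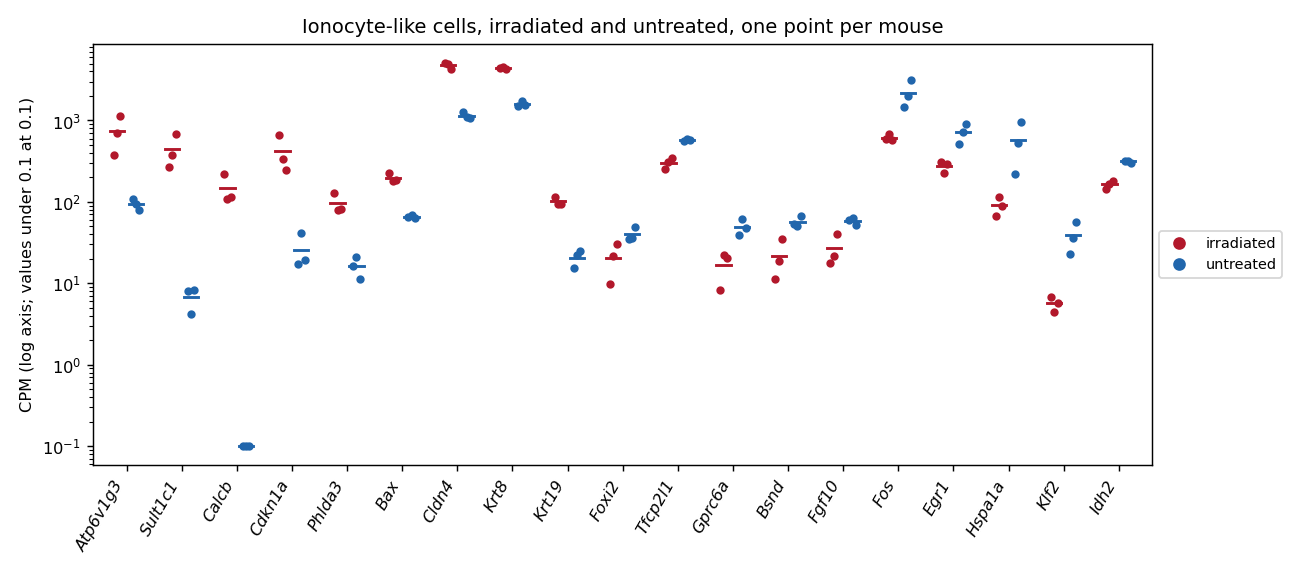
Level in CPM (log axis) of 19 genes in ionocyte-like cells of irradiated (left, red) and untreated (right, blue) mice, chosen by the same rule; points are mice, bars means, and Calcb, at 0 in untreated mice, is drawn at 0.1. Atp6v1g3 to Krt19 and the p53 targets Cdkn1a, Phlda3 and Bax lie higher in all irradiated mice, and Foxi2 to Idh2 lie lower in all irradiated mice.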

How the data were processed

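Cells were measured by 10x Genomics 3′ RNA sequencing with hashtag antibodies. The deposited matrices hold raw UMI counts per gene or hashtag and barcode, made by the authors with Cell Ranger 6.1.2 on mm10, per the submitters' processing notes. Mice were assigned with HTODemux (Seurat 5.3.0, positive quantile 0.99), and passing cells were clustered with scanpy 1.11.5. A library holds 3 mice, the replicates here. The sums of UMIs ranged from 2873036 to 13210332 per mouse, and intervals and floors cover counting error only. Members and other cells were compared without a test, since the rule used these counts. Irradiated and untreated sums were compared with edgeR 4.0.16 (TMM scaling, quasi-likelihood test, adjusted p under 0.05), tested on simulated data. Shares per mouse were compared by exact permutation. Cells with several hashtags were left out of sums, and no doublet caller was run.

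Members and gene lists were chosen with earlier results of these data known. Named genes were the 25 highest and 10 lowest ratios (pseudocount 5 CPM, at least 50 CPM), the 8 largest irradiation changes per direction, and called list members. List members under 50 CPM were chosen after their values were seen. Same-numbered mice share only a number. Alternatives changed the gate, the granular and mitochondrial limits, the mouse assignment, scaling, filter and tool, thinned cells, or left out a mouse. A few genes are not reported here.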

Additional observations from a re-analysis of the deposited data

How the results depend on the processing

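Between members and other cells, at least 2-fold higher were 1775 genes as reported, 1061 with a mitochondrial limit of 10%, 7087 with all barcodes whatever their hashtag, 3671 with the gate also at 0.05% of UMIs, 3649 with the 2 ionocyte-like clusters only and 710 with every cell of equal weight, the last 3 chosen after seeing the data. At least 2-fold lower were 243 genes as reported, 151 with all barcodes, 405 with the 2 clusters only and 811 with equal weight. Leaving out 1 mouse gave 1506 to 2200 higher and 249 to 281 lower. Of the level ratios of single genes, 495 moved by less than 1 SD and 264 by more. None of the genes called higher or lower changed direction, and genes without a call were not counted for this. Esrrg, which had no call, went from a log2 ratio of 0.066 to -0.047 with every cell of equal weight.

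Between irradiated and untreated members, 1462 genes were higher and 963 lower. The higher count was 876 with a mitochondrial limit of 10%, 967 with mice assigned by hashtag share and 468 with cells thinned to 3000 UMIs. The lower count was 639 with DESeq2, 554 without TMM, 542 with the mitochondrial limit, 443 by hashtag share and 235 with thinned cells, where only 6993 genes were tested. Leaving out 1 mouse gave 1022 to 1507 higher and 451 to 940 lower. With the mouse number as a replicate block the counts were 1337 and 773, but same-numbered mice did not deviate together (correlations -0.112, -0.0556 and 0.0489), so the block has no pairing behind it. The difference in share was 13.3 percentage points as reported, -5.12 with thinned cells (exact p = 0.2), 1.7 with the gate also at 0.05% of UMIs, 4.44 with a gate of 10 UMIs, 5.32 with a granular limit of 1%, 21.4 by hashtag share, 29.2 with the mitochondrial limit and 10.4 to 15.3 without 1 mouse. Of the irradiation comparisons of single genes, 2085 kept their call, 455 (97 genes) lost the threshold and 6 changed direction. These were Crisp3 (-0.037 with a granular limit of 1%, -0.16 with thinned cells and -0.067 with the gate at 0.05%), Cox8b (0.18 with the mitochondrial limit), Nkd2 (0.29 with thinned cells) and Hk2 (-0.38 with the granular limit). Except for the number of genes tested, the cause was not tested. Depth limits genes near 5 CPM and shares of cells near 1 UMI.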
